A study of Mus musculus with 35 samples.

Results

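Sox4, Sox12, Tcf7, Lef1, Tcf7l1 and Tcf7l2 encode transcription factors that bind DNA through an HMG box, and they were followed here through mouse leukemias driven by NUP98 fusion genes. The 6 genes were taken by their Entrez identifiers from the 24454 genes of the deposited expression table, and all 6 were present. They were chosen by name with earlier results of these data known, and Sox4 and Tcf7, which head the choice, are treated as selected on their changes with doxycycline. The doxycycline responses of those 2 are therefore given as levels and fold changes without a test.

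The RNA came from bone marrow cells sorted as GFP/CD45.2+ from transplanted C57BL/6 mice whose cells carried a regulatable NUP98-DDX10, NUP98-JARID1A or NUP98-NSD1 fusion. For each fusion there were 3 libraries from mice given doxycycline (4 mg/ml) for 3 days, 3 libraries from mice given it for 5 days and 4 libraries from untreated mice. One untreated library per fusion is titled as day 3 and the others as day 5, and these 4 were taken as 1 group. A further 3 untreated libraries are titled as controls. Their genotype label runs through NUP98 fusions with no single one named, so what the control cells carried is not stated in the sources used here. The labels do not number the mice, so a p-value here reflects the spread among these libraries alone, which may be technical. The promoter that drives the fusions and the clonality of the leukemias are not given in the labels.

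The libraries held 12510513 to 15554633 reads assigned to genes for NUP98-DDX10, 14839207 to 28903870 for NUP98-JARID1A, 14752618 to 17911797 for NUP98-NSD1 and 12043487 to 17513924 for the controls. Each fusion transcript was low under doxycycline: NUP98-NSD1 averaged 49.1 normalized counts at day 3 and 46.5 at day 5, against 54846 in untreated NSD1 leukemias. In their own models NUP98-JARID1A averaged 96.4 and 85.3, against 3225 untreated, and NUP98-DDX10 averaged 4.98 and 6.30, against 12449 untreated. The eGFP transcript was low under doxycycline as well, with means of 18.1 and 16.8 against 16473 in the NUP98-NSD1 leukemias. Its means were 338 and 323 against 11652 in NUP98-JARID1A and 3.53 and 3.15 against 10511 in NUP98-DDX10. Controls had 13.9 to 210.3 normalized counts of eGFP and 2.52 to 72.0 of NUP98-JARID1A. The controls also differed among themselves: replicate 3 had a summed neutrophil marker level of 273893, against 3143340 and 3433000 in the other control libraries, and a summed B cell marker level of 94985, against 21325 and 23313. The sum of 10 monocyte and macrophage markers was 34358 to 117621 in the leukemia libraries, against 27016 to 46106 in the controls. This sum does not test the labelled marrow origin. For the 6 genes, results that rest on the controls are given with and without control replicate 3 where its removal changes the call. Genes of the lists below were not examined without it.

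SOX proteins bind the minor groove of DNA and bend it. SOX4 and SOX12 belong to the SOXC subgroup, which acts in progenitor cells, and SOX4 is known in mice and humans for its part in lymphocyte development and as an oncogene in myeloid leukemia. TCF7 (also called TCF-1), LEF1, TCF7L1 and TCF7L2 are the nuclear end of the canonical Wnt pathway: with beta-catenin bound they activate target genes, and without it they recruit TLE corepressors. Tcf7 and Lef1 are best known from T cell development, where Tcf7 is switched on in the earliest thymic progenitors.

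The 250 bases before the start of Sox4 are printed because Sox4 was low under doxycycline in all 3 fusion models. One of 4 RefSeq windows of Lef1 is printed because it was the only one of 11 windows of the 6 genes with a TCF/LEF core. Both are written 5′ to 3′ on the gene's strand from RefSeq (GRCm38.p6), with matches to a TCF/LEF core (TCAAAG) or to a MEIS core (TGACAG), on either strand, in capitals.
Sox4, minus strand, chr13:28953700-28953949: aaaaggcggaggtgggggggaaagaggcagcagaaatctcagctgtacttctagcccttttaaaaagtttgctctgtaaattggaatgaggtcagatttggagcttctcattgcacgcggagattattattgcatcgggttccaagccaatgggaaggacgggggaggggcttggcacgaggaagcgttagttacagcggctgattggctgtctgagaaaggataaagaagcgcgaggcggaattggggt
Lef1, plus strand, chr3:131156044-131156293: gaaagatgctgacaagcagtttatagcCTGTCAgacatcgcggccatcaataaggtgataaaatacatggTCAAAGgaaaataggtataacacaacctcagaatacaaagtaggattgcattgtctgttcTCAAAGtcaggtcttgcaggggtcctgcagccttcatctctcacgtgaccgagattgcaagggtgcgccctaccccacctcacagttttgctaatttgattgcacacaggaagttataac
The Sox4 window held no match to the 4 letter strings searched on both strands, which were the TCF/LEF core, the MEIS core, a SOX core (AACAATG) and a HOX-PBX core (TGATTTAT). The Lef1 window, which lies inside the gene span, held 2 TCF/LEF cores and 1 MEIS core. Of 32851 windows of the same length before annotated starts, 13.8% held the TCF/LEF core, 15.9% the MEIS core, 3.29% the SOX core and 0.837% the HOX-PBX core. None of the 4 strings contains another on either strand, and 14 bases of the Sox4 window lie in an exon of the GENCODE annotation. A match is a description of these letters and not a site of binding.

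Sox4 lies on the minus strand of chromosome 13 (chr13:28948919-28953699, GRCm38). All levels below are the authors' normalized counts, made by dividing reads by a scale factor set for each library. In NUP98-DDX10 cells Sox4 was at 24.6, 62.7 and 55.2 at day 3 and at 13.2, 8.61 and 9.01 at day 5, against 272, 180.3, 234 and 146 in untreated cells. In NUP98-JARID1A cells it was at 24.7, 19.5 and 28.1 at day 3 and at 6.08, 4.02 and 4.46 at day 5, against 285, 228, 389 and 641 in untreated cells. In NUP98-NSD1 cells it was at 58.1, 72.6 and 97.1 at day 3 and at 6.46, 40.0 and 19.7 at day 5, against 275, 346, 394 and 365 in untreated cells. In every fusion model each day 5 library was below each day 3 library and each day 3 library was below each untreated one. Of all features tested, 19.7% had every day 5 library below every untreated one in NUP98-NSD1, 18.4% in NUP98-JARID1A and 19.4% in NUP98-DDX10. The shares were 17.6%, 13.6% and 11.9% for day 3 below untreated and 19.8%, 15.1% and 13% for day 5 below day 3, in the same order of fusions.

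At day 5 the mean Sox4 level was 6.38% of the untreated mean in NUP98-NSD1, 1.26% in NUP98-JARID1A and 4.94% in NUP98-DDX10 cells. At day 3 it was 22%, 6.24% and 22.8% in that order. The day 5 groups held only 68, 18 and 29 reads of Sox4 in the same order. Between day 5 and day 3 the log2 fold changes were -2.03 ± 0.48 in NUP98-NSD1, -2.10 ± 0.48 in NUP98-JARID1A and -2.02 ± 0.48 in NUP98-DDX10 (each ± SE, as in all fold changes below). In NUP98-NSD1 this step was -1.37 without day 5 replicate 1 and -2.60 without day 5 replicate 2, and the day 5 change against untreated of -4.21 ± 0.45 was -3.56 and -4.79 without them. Fold changes here and below are on the log2(value + 1) scale, which understates the change of low genes. In bulk RNA a lower level can mean fewer cells of a type or less RNA per cell, and these cannot be told apart. The summed level of 12 stem and progenitor markers was also lower at day 5 than untreated in each model. At day 5 NUP98-NSD1 cells had 2339.6 to 4264, NUP98-JARID1A cells 2391 to 2559.9 and NUP98-DDX10 cells 6009.7 to 7708. The untreated ranges, in that order, were 7928 to 10057, 15492 to 20908 and 14524 to 17417. Mecom had no reads in any fusion group. Not every marker of the list fell: Flt3 averaged 1311 at day 5 in NUP98-NSD1 cells, against 893 untreated. Within NUP98-NSD1 at day 5, replicate 1 had the lowest Sox4 (6.46) and the highest sum (4264). The summed level of 10 neutrophil markers was higher at day 5 in NUP98-JARID1A (625217 to 1071000.0 at day 5, against 198967 to 251414 untreated) and in NUP98-NSD1 (123381 to 287928 against 41091 to 91849), and overlapped in NUP98-DDX10. The sum of the monocyte and macrophage markers was higher at day 5 without overlap in every model: 95008 to 98578 against 53468 to 60338 in NUP98-NSD1, 99687 to 117621 against 34358 to 52704 in NUP98-JARID1A and 71032 to 75754 against 59519 to 65632 in NUP98-DDX10. Single markers of that list went both ways in NUP98-DDX10. The means of Csf1r (12133.5 at day 5, against 14431 untreated), Ly86 (6794 against 10406) and Ccr2 (4596 against 6429) were lower there. Those of the other markers, such as Lgals3 (18709 against 9907), were higher. The part of these cell populations in the Sox4 levels was not tested.

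**Figure D1:**
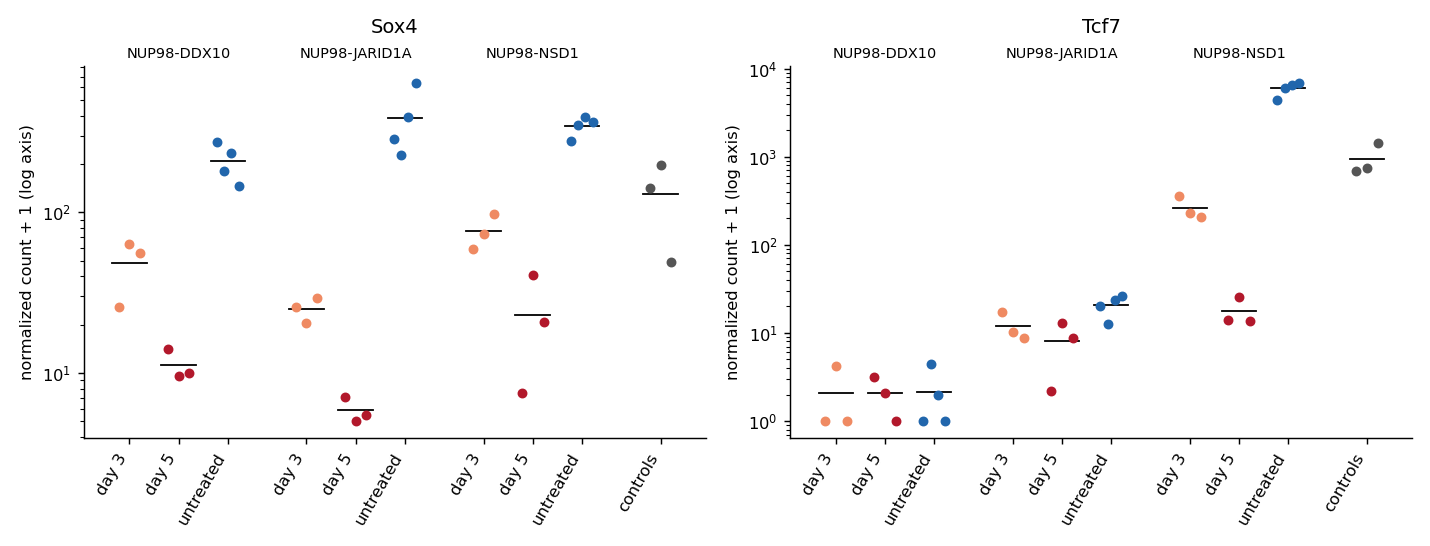
Normalized counts plus 1 of Sox4 (left) and Tcf7 (right) on log axes, with 1 point per library and a black line at the group mean, for each fusion at day 3, at day 5 and untreated, and for the controls at the right. Sox4 is lower at day 3 than untreated and lower again at day 5 in all 3 models, while Tcf7 is high in untreated NUP98-NSD1 cells (4457, 6092, 6464 and 6939) and near 0 throughout NUP98-DDX10.

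Untreated leukemias were compared with the control libraries, which had Sox4 at 140.1, 197 and 48.0. The limma test, with Benjamini-Hochberg adjustment over 12687 features here and below, called Sox4 higher in untreated NUP98-JARID1A (3.01-fold, adjusted p = 0.00153) and in untreated NUP98-NSD1 (2.69-fold, adjusted p = 0.00236). In untreated NUP98-DDX10 the log2 difference of 0.87 ± 0.45 was not called (adjusted p = 0.0848, but 0.0184 under quantile normalization), and libraries of both groups overlapped. Averaged over the fusions the log2 difference was 1.40 ± 0.38 (adjusted p = 0.00178). Control replicate 3 had the lowest Sox4 of the controls, and without it the average was 0.81 and no longer called (adjusted p = 0.0707), with 1.10 in NUP98-JARID1A and 1.04 in NUP98-NSD1.
At day 5 the mean Sox4 level of each of the 3 models was below that of the controls. The log2 difference to the controls was -3.32 ± 0.48 in NUP98-DDX10, -4.26 ± 0.48 for NUP98-JARID1A and -2.59 ± 0.48 for NUP98-NSD1, given without a test since these day 5 levels belong to the doxycycline response. The 3 comparisons share the control libraries. Untreated levels are the other side of that response, so the p-values here for untreated Sox4 are not independent of its selection. Among the untreated leukemias Sox4 was not called different between fusions (adjusted p = 0.136, F-test of limma), and the pair farthest apart, NUP98-JARID1A over NUP98-DDX10, differed by 0.82 ± 0.41 on the log2 scale (adjusted p = 0.116, but 0.0434 with edgeR).

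An exon of Sox4 overlaps Gm26735 on the opposite strand. Exons of Tcf7 overlap Gm26551 and A630014C17Rik, one of Lef1 overlaps Gm43352 and one of Tcf7l1 overlaps Gm15401. Per the labels the libraries keep strand, but whether reads were counted by strand is not given in the sources used here, so reads of these neighbours could have been counted with the genes.

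Over the 10 groups the mean Sox4 level ran in this order: untreated NUP98-JARID1A (386 ± 183, SD, n = 4), untreated NUP98-NSD1, untreated NUP98-DDX10, controls, NUP98-NSD1 at day 3, NUP98-DDX10 at day 3, NUP98-JARID1A at day 3, NUP98-NSD1 at day 5, NUP98-DDX10 at day 5 and NUP98-JARID1A at day 5 (4.85 ± 1.09, SD, n = 3). Neighbours in that order overlapped in their libraries except untreated NUP98-NSD1 over untreated NUP98-DDX10, and NUP98-DDX10 over NUP98-JARID1A at day 5.

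Sox12, a SOXC gene like Sox4 (chr2:152393611-152398046, minus strand), was called at day 5 in 1 of the 3 models. In NUP98-JARID1A cells it was at 7.65, 15.8 and 14.5 at day 3 and at 4.26, 3.01 and 8.91 at day 5, against 21.2, 14.4, 15.7 and 12.6 in untreated cells. In NUP98-DDX10 cells it was at 23.5, 22.3 and 26.0 at day 3 and at 16.5, 21.5 and 16.0 at day 5, against 19.4, 25.6, 8.74 and 17.98 in untreated cells. In NUP98-NSD1 cells it was at 47.3, 47.5 and 82.0 at day 3 and at 40.9, 30.4 and 27.5 at day 5, against 48.8, 54.4, 54.5 and 34.2 in untreated cells. In NUP98-JARID1A every day 5 library was below every untreated one, whereas libraries of the other models overlapped. Sox12 fell there at day 5 to 33.8% of the untreated mean (log2 fold change -1.49 ± 0.35, adjusted p = 0.00127). That fall rests on 18 reads over the day 5 libraries, against 65 over the untreated ones. The day 5 log2 change was 0.08 ± 0.35 in NUP98-DDX10 (adjusted p = 0.916) and -0.52 ± 0.35 in NUP98-NSD1 (adjusted p = 0.311). The F-test of a difference between the fusions in that change missed the threshold (adjusted p = 0.0521). Averaged over fusions Sox12 fell at day 5 against untreated (-0.64 ± 0.20, adjusted p = 0.0113) and against day 3 (-0.78 ± 0.22, adjusted p = 0.00873), but it was not called at day 3 against untreated (0.13 ± 0.20, adjusted p = 0.715).

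Before doxycycline Sox12 was higher in NUP98-NSD1 than in the other leukemias. It was 2.68-fold that of NUP98-DDX10 (adjusted p = 0.000947) and 3.00-fold that of NUP98-JARID1A (adjusted p = 0.000265). The controls had Sox12 at 27.8, 37.7 and 83.1. Sox12 was lower than in the controls in untreated NUP98-DDX10 (log2 difference -1.35 ± 0.35, adjusted p = 0.00142) and in untreated NUP98-JARID1A (-1.44 ± 0.35, adjusted p = 0.000742), and it was not called in untreated NUP98-NSD1 (0.09 ± 0.35, adjusted p = 0.844). Quantile normalization ended both calls (adjusted p = 0.393 and 0.235) and called Sox12 higher in NUP98-NSD1 (1.01, adjusted p = 0.0176). The average over fusions (-0.90 ± 0.30, adjusted p = 0.00886) was lost without control replicate 3 (adjusted p = 0.196), and quantile normalization turned its sign (0.05, adjusted p = 0.885). At day 5 Sox12 was below the controls in NUP98-JARID1A (-2.94 ± 0.38, adjusted p = 1.5e-07) and in NUP98-DDX10 (-1.27 ± 0.38, adjusted p = 0.00471). The NUP98-DDX10 call was lost without control replicate 3 (adjusted p = 0.0569) and under quantile normalization (adjusted p = 0.708). In NUP98-NSD1 the log2 difference of -0.44 at day 5 was not called (adjusted p = 0.326).

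Tcf7 (chr11:52246527-52283383, minus strand) set the fusion models apart. In NUP98-NSD1 cells it was at 357, 229.6 and 204 at day 3 and at 12.9, 24.7 and 12.8 at day 5, against 4457, 6092, 6464 and 6939 in untreated cells. In NUP98-JARID1A cells it was at 16.2, 9.28 and 7.75 at day 3 and at 1.22, 12.1 and 7.80 at day 5, against 19.2, 11.7, 23.0 and 25.2 in untreated cells. In NUP98-DDX10 cells Tcf7 had 3 reads in all at day 3 and 3 reads at day 5, against 4 reads over the untreated libraries. In NUP98-NSD1 the libraries of the 3 states did not overlap, whereas in NUP98-JARID1A they did.

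At day 5 the Tcf7 mean in NUP98-NSD1 cells was 0.281% of the untreated mean, which is 356-fold lower (log2 fold change -8.44 ± 0.56). At day 3 it was 4.40% of the untreated mean, or 22.7-fold lower (-4.52 ± 0.56). The day 5 mean of NUP98-NSD1 cells (16.8 ± 6.86, SD, n = 3) lay within the range of untreated NUP98-JARID1A cells (19.8 ± 5.89, SD, n = 4). In NUP98-JARID1A the day 5 log2 change was -1.66 ± 0.56, from untreated levels of at most 25.2, and it was -0.90 without day 5 replicate 1. In NUP98-DDX10 the day 5 ratio by reads was 1.04 with an exact 95% interval of 0.152 to 6.13, which covers counting error only. Replicate 2 of NUP98-NSD1 at day 5 had the highest Tcf7 of its group, the highest Sox4 and the highest Tcf7l2. It also had the highest summed T cell (223), B cell (2719), neutrophil (287928) and erythroid (202) marker levels of its group, and the part of such cells in these values was not tested.

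Untreated NUP98-NSD1 leukemias had 303-fold more Tcf7 than untreated NUP98-JARID1A leukemias (adjusted p = 2.71e-13, limma). The log2 difference to untreated NUP98-DDX10 was 11.74 ± 0.52 (adjusted p = 1.89e-16), a ratio by reads of 5876 with an exact 95% interval of 2295 to 21568. Untreated NUP98-JARID1A was in turn above untreated NUP98-DDX10 by 3.54 ± 0.52 (adjusted p = 3.29e-06), a ratio by reads of 19.2 with an exact interval of 7.22 to 72.2.
The controls, with Tcf7 at 696, 736 and 1419, stood between the leukemias. Tcf7 was 6.30-fold higher in untreated NUP98-NSD1 than in the controls (adjusted p = 0.000128). It was 48.1-fold lower in untreated NUP98-JARID1A (adjusted p = 1.68e-09). In untreated NUP98-DDX10 it was lower, with a log2 difference of -9.03 ± 0.56 (adjusted p = 9.93e-14). After 5 days of doxycycline Tcf7 in NUP98-NSD1 cells was 56.5-fold below the controls, a description with no test. The p-values above for untreated Tcf7 are likewise not independent of its selection.

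Tcf7 is a T cell gene in normal marrow, so 19 T cell markers were summed beside it. Their sum was 265, 311, 226 and 386 in untreated NUP98-NSD1, against 6015, 6501 and 15138 in the control libraries. Cd3g, Cd247 and Cd8b1, parts of the T cell receptor complex and the CD8 coreceptor, had no reads in any untreated NUP98-NSD1 library, and Cd3e had 3 reads in all. Other markers of the list had reads there: Il7r, the interleukin 7 receptor, averaged 25.8 at day 5, against 105 in untreated NUP98-NSD1, Cd5 averaged 35.7 against 76.7, and Ccr7 averaged 17.7 against 70.9. The controls averaged 1152 of Il7r, 155 of Cd5 and 1943 of Ccr7. The part of T lineage cells in the Tcf7 levels was not tested. The sum was 119 to 158 at day 3 and 74.3 to 223 at day 5 in NUP98-NSD1 cells. Untreated NUP98-JARID1A had a higher T cell sum (734 to 966) than untreated NUP98-NSD1 and far less Tcf7, and Gata3, a T cell factor with other roles in blood, was the largest single entry with a mean of 505. Untreated NUP98-DDX10 had a sum of 97.1 to 139.9.

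Over the 10 groups Tcf7 was highest in untreated NUP98-NSD1 (5988 ± 1078, SD, n = 4), then in the controls (950.1 ± 406, SD, n = 3), then in NUP98-NSD1 at day 3 (263 ± 81.8, SD, n = 3), each separated from the next in every library. All later neighbours in the order, from untreated NUP98-JARID1A through the other NUP98-JARID1A groups and NUP98-NSD1 at day 5 to the 3 NUP98-DDX10 groups, overlapped.

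Lef1 (chr3:131110297-131224357, plus strand), the closest relative of Tcf7, was high in the control libraries and scarce in every leukemia. Every library of NUP98-DDX10 and NUP98-JARID1A had either no read or 1 read of it. In NUP98-NSD1 cells Lef1 was at 3.32, 3.59 and 12.5 at day 3 and at 1.08, 20.9 and 0 at day 5, against 5.13, 0.939, 3.57 and 1.67 in untreated cells. The controls had Lef1 at 579, 586 and 713. So Lef1 was at most 20.9 in any NUP98-NSD1 library, and at most 5.13 in the untreated ones in which Tcf7 was at its highest.
Lef1 reached 10 normalized counts in 5 of 33 libraries, 3 of them controls, so it entered the tests mainly through the group in which it is high and its difference from the controls is a description. It was at least 817-fold lower than in the controls in untreated NUP98-DDX10 and at least 850-fold lower in untreated NUP98-JARID1A, against a floor of 3 reads over the group. In untreated NUP98-NSD1 it was 221-fold lower. The B cell marker sum was 21325 to 94985 in the controls, against at most 2719 in any leukemia library. The T cell sum was 6015 to 15138 in the controls, against at most 966 in any leukemia library. The part of lymphoid cells in the Lef1 difference was not tested. Untreated NUP98-NSD1 had 13 reads of Lef1 over its libraries, whereas untreated NUP98-DDX10 and NUP98-JARID1A had none. That difference between fusions was called (adjusted p = 0.00755, F-test of limma), but not at a pseudocount of 5 (adjusted p = 0.113) or with the untreated libraries titled as day 5 only (adjusted p = 0.0744). With doxycycline Lef1 was not called: the day 5 log2 change averaged 0.24 ± 0.35 (adjusted p = 0.603). In NUP98-NSD1 the day 5 change was 0.04 ± 0.61, and without day 5 replicate 2 it was -1.27 and called (adjusted p = 0.0489).

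Tcf7l1 (chr6:72626371-72789045, minus strand), which encodes the family member known mostly as a repressor, was near the limit of detection. It reached 10 normalized counts in 6 of 33 libraries, all of them controls or NUP98-NSD1. In NUP98-NSD1 cells it was at 9.95, 6.28 and 14.3 at day 3 and at 4.31, 4.76 and 4.92 at day 5, against 14.5, 16.0, 7.15 and 7.52 in untreated cells. In NUP98-DDX10 cells it was at 2.24, 1.06 and 1.04 at day 3 and at 2.20, 0 and 0 at day 5, against 6.13, 8.14, 0 and 2.84 in untreated cells. In NUP98-JARID1A cells it had no reads at day 3 and was at 1.82, 0 and 0 at day 5, against 6.07, 0, 3.13 and 1.93 in untreated cells. The day 5 libraries of NUP98-NSD1 were all below its untreated ones, and the other models overlapped. The 3 control libraries were enough to carry Tcf7l1 past the filter, so its doxycycline change was not fixed by it. The day 5 groups held only 14 reads in NUP98-NSD1, 3 in NUP98-JARID1A and 2 in NUP98-DDX10. The average over fusions was called lower at day 5 (-1.19 ± 0.35, adjusted p = 0.00630) and no single fusion was (adjusted p = 0.227 in NUP98-NSD1, 0.148 in NUP98-JARID1A, 0.111 in NUP98-DDX10). The day 3 average was -0.82 ± 0.35 (adjusted p = 0.104, but 0.0264 with edgeR).

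Untreated NUP98-NSD1 had 4.06-fold the Tcf7l1 of untreated NUP98-JARID1A (adjusted p = 0.00433). Against untreated NUP98-DDX10 the log2 difference was 1.55 ± 0.56 (adjusted p = 0.0276), but the call was lost without replicate 3 or 4 of untreated NUP98-DDX10 or replicate 1 or 2 of untreated NUP98-NSD1 (adjusted p of up to 0.171) and with edgeR (adjusted p = 0.0580). The controls had Tcf7l1 at 15.1, 13.7 and 18.2. All untreated NUP98-DDX10 and NUP98-JARID1A libraries were below that (3.67-fold and 5.63-fold lower in the mean), and untreated NUP98-NSD1 libraries overlapped with the controls. Since the control libraries, in which Tcf7l1 is high, were enough to carry it past the filter, its differences from the controls are a description with no test. The tests between fusions rest on few reads, 51 in untreated NUP98-NSD1, 11 in untreated NUP98-JARID1A and 16 in untreated NUP98-DDX10.

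Tcf7l2 (chr19:55741797-55933659, plus strand), which encodes the Wnt effector best known from the intestine, was the only TCF gene at 10 normalized counts or more in all 33 libraries. In NUP98-NSD1 cells it was at 229, 170.4 and 166 at day 3 and at 105, 212 and 110.2 at day 5, against 235, 298, 289 and 372 in untreated cells. In NUP98-JARID1A cells it was at 100.3, 82.6 and 93.0 at day 3 and at 102, 132 and 152 at day 5, against 85.9, 117, 136 and 187 in untreated cells. In NUP98-DDX10 cells it was at 20.1, 22.3 and 20.8 at day 3 and at 43.9, 43.0 and 25.0 at day 5, against 22.5, 43.0, 15.5 and 28.4 in untreated cells. Libraries of day 5 and untreated cells overlapped in NUP98-DDX10 and NUP98-JARID1A, and in NUP98-NSD1 all day 5 libraries were lower.
Tcf7l2 fell at day 5 in NUP98-NSD1 to 47.8% of the untreated mean (log2 fold change -1.12 ± 0.31, adjusted p = 0.00841). Without day 5 replicate 1 or replicate 3 the call was lost, with adjusted p of up to 0.0548. The day 5 change was 0.48 ± 0.31 in NUP98-DDX10 (adjusted p = 0.318) and 0.00 ± 0.31 in NUP98-JARID1A. The change differed between the fusions (adjusted p = 0.0200, F-test of limma), with up to 0.0650 when day 5 replicate 1 or 3 of NUP98-NSD1 was left out. NUP98-NSD1 and NUP98-DDX10 differed by -1.60 ± 0.44 in that change (adjusted p = 0.0219). That call was lost in 4 of 33 fits that left out 1 library, with adjusted p of up to 0.0715.

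Untreated Tcf7l2 levels formed 3 steps, in a comparison where 69.8% of all features were called different between fusions. NUP98-NSD1 had 10.9-fold the level of NUP98-DDX10 (adjusted p = 2e-10) and 2.27-fold that of NUP98-JARID1A (adjusted p = 0.000774). NUP98-JARID1A had 4.80-fold the level of NUP98-DDX10 (adjusted p = 3.8e-07). Untreated NUP98-DDX10 was 6.25-fold below the controls (adjusted p = 3.47e-08), which had Tcf7l2 at 246, 168 and 98.7. Untreated NUP98-NSD1 was above the controls by 0.88 ± 0.31 (adjusted p = 0.0156), a call lost without control replicate 3 (adjusted p = 0.153). In untreated NUP98-JARID1A the log2 difference of -0.34 ± 0.31 was not called (adjusted p = 0.342). The average over fusions (-0.68 ± 0.26, adjusted p = 0.0224) was lost without control replicate 1 or 2 (adjusted p of up to 0.270) and under quantile normalization (adjusted p = 0.265).

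**Figure D2:**
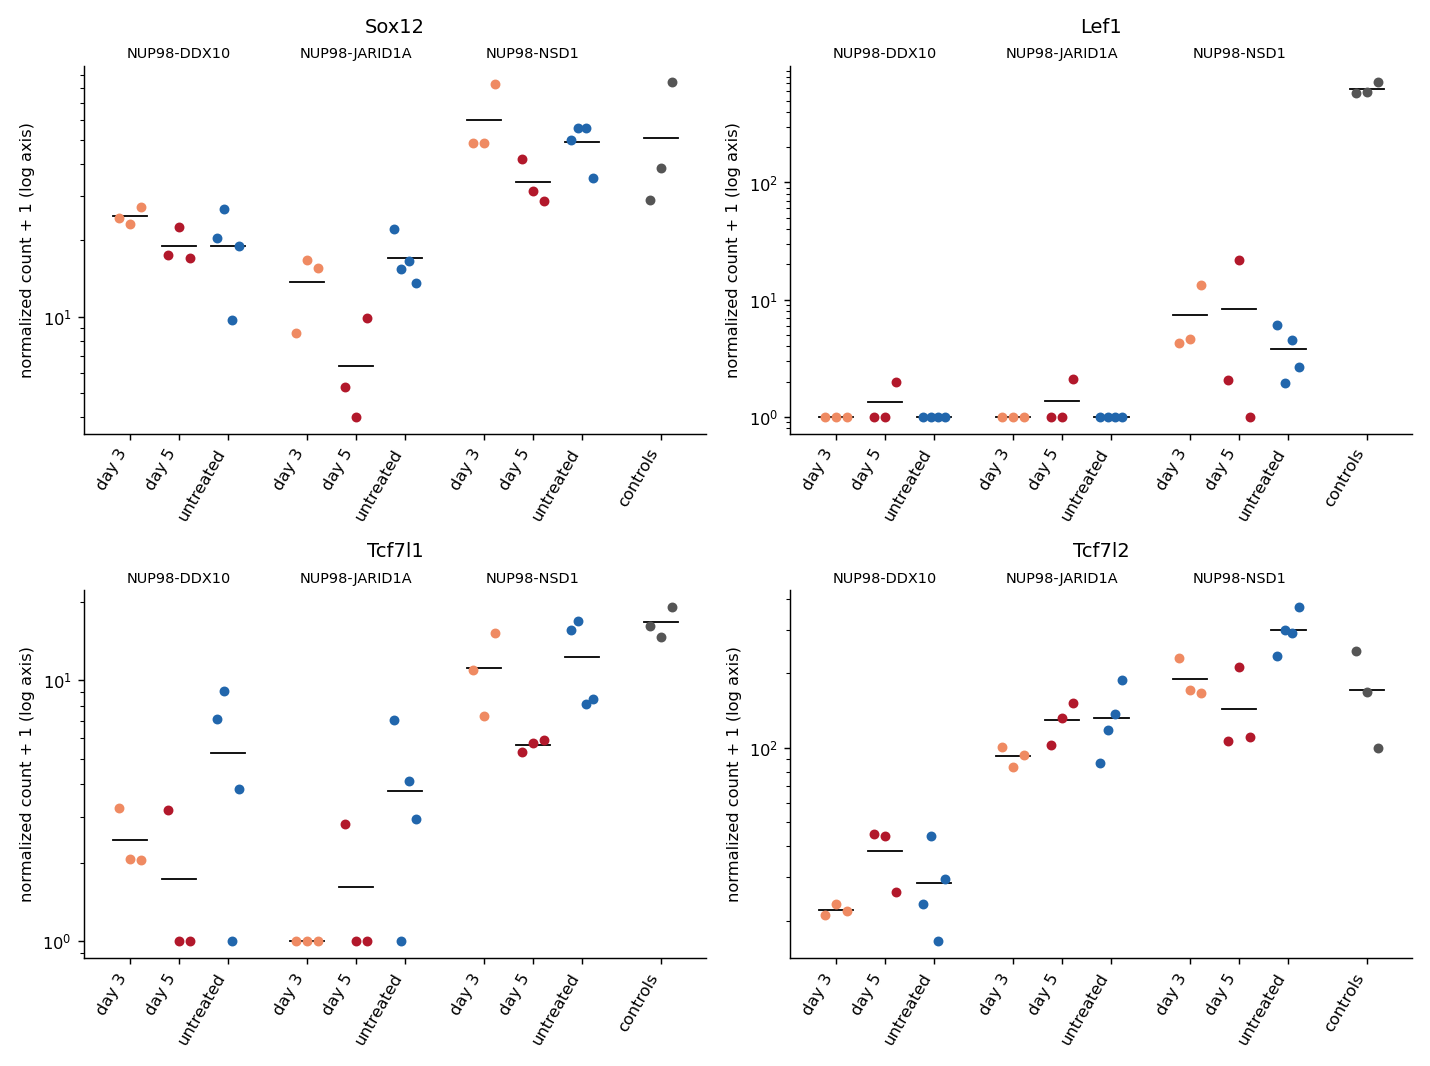
Normalized counts plus 1 of Sox12, Lef1, Tcf7l1 and Tcf7l2 on log axes, with 1 point per library and a black line at the group mean, for each fusion at day 3, at day 5 and untreated, and for the controls at the right. Lef1 is high in the controls alone (579, 586 and 713), and untreated Tcf7l2 is highest in NUP98-NSD1 and lowest in NUP98-DDX10.

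Sox4 and Tcf7, selected on doxycycline changes, and Lef1 and Tcf7l1, which hold few reads in the leukemias, were left out of counts of calls under doxycycline. Of Sox12 and Tcf7l2, Sox12 was called lower at day 5 in the average over fusions, where 23.4% of all features were called lower and 22.6% higher, and against day 3, where 13.4% were called lower. In single models Sox12 was called lower at day 5 in NUP98-JARID1A (21.2% of features) and Tcf7l2 in NUP98-NSD1 (11.9%), and the day 5 change of Tcf7l2 differed between fusions (26% of features).
Against the controls Lef1 and Tcf7l1 were left out because the controls carried them past the filter. Of the other 4 genes Sox4 was called higher in untreated leukemia in the average over fusions (31.8% of features), and Sox12, Tcf7 and Tcf7l2 were called lower (38.9% of features). In single models the same 3 were lower in NUP98-DDX10 (37.9% of features), and Sox12 and Tcf7 were lower in NUP98-JARID1A (38%). Sox4 was higher in NUP98-JARID1A (31.4%), and Sox4, Tcf7 and Tcf7l2 were higher in NUP98-NSD1 (29.7%). Comparisons with the controls depended on scaling: under quantile normalization the median log2 difference of all features in untreated leukemia was 0.16, against -0.09 as deposited, and 58.6% of called features were higher, against 45.0%. Of these 4 genes, Sox4 and Tcf7 were then called in the average. Both were selected on changes from these untreated levels, so their calls against the controls are not independent of that choice.
Between the untreated leukemias 5 of the 6 genes, all but Sox4, were called different, where 69.8% of features were. The same 5 were called higher in NUP98-NSD1 than in NUP98-DDX10 (21.2% of features called higher) and than in NUP98-JARID1A (29.3%). Among these 5, Tcf7 was selected, and Lef1 and Tcf7l1 held only 13 and 51 reads in untreated NUP98-NSD1 and fewer in the others. Sox12 and Tcf7l2 are the remaining ones. Sox12 itself held 217 reads in untreated NUP98-NSD1, 65 in untreated NUP98-JARID1A and 69 in untreated NUP98-DDX10. The count of 5 is therefore no result about the family. Of the 6, Tcf7 and Tcf7l2 were called higher in NUP98-JARID1A than in NUP98-DDX10, where 21.6% of features were. With edgeR Lef1 (adjusted p = 0.0610) and Tcf7l1 were not called between NUP98-NSD1 and NUP98-DDX10.

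**Figure D3:**
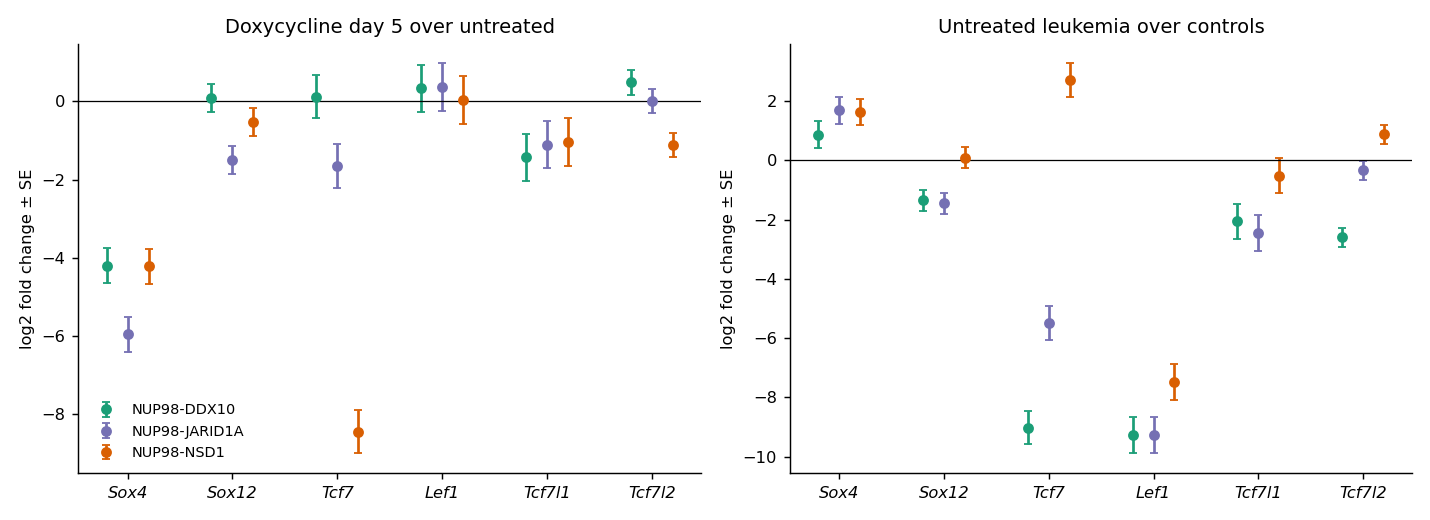
Log2 fold changes with their standard errors for the 6 genes in each fusion model, at day 5 of doxycycline over untreated (left) and in untreated leukemia over the controls (right), on the log2(value + 1) scale. Sox4 is far below 0 in all 3 models at day 5, Tcf7 is lowest in NUP98-NSD1 (-8.44), and in the right panel Tcf7 is above 0 only in NUP98-NSD1 (2.71).

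The genes most like Sox4 were those with the smallest root mean square difference of centred log2 group means over the 10 groups. The first 5 were Serpina3f (0.768), Depp1 (0.826), Il12a (0.841), Auts2 (0.919) and Car3 (0.937). Il12a, which encodes a subunit of interleukin 12, averaged 23.5 at day 5 in NUP98-JARID1A cells, against 552 in untreated ones. By Pearson correlation over the 33 libraries the first 5 included only Il12a (r = 0.886) and Auts2 of these. The libraries share their groups, so these values only describe likeness.

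For Tcf7 the closest gene was Axin2, by both measures (root mean square difference 2.08, r = 0.902). Axin2 encodes a scaffold of the beta-catenin destruction complex and is itself a classical target of TCF and beta-catenin. In NUP98-NSD1 cells Axin2 was at 9.95, 24.2 and 15.1 at day 3 and at 2.15, 3.81 and 3.94 at day 5, against 29.9, 28.2, 32.2 and 43.4 in untreated cells. It was at 27.8, 38.9 and 58.4 in the controls and at most 2.01 in every NUP98-DDX10 and NUP98-JARID1A library. So Axin2, like Tcf7, was present in untreated NUP98-NSD1 cells and in the controls, but its NUP98-NSD1 and control levels overlapped where those of Tcf7 did not. Since Axin2 was picked for this likeness, no test of it is given. The next genes were Hoxb3 (2.13), C1qtnf6 (2.14), Gbp6 (2.14) and Myo1e (2.28), none of them among the first 5 by correlation. Hoxb3, a homeobox gene, averaged 88.0 at day 5 in NUP98-NSD1 cells, against 269.9 in untreated ones.

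**Figure D4:**
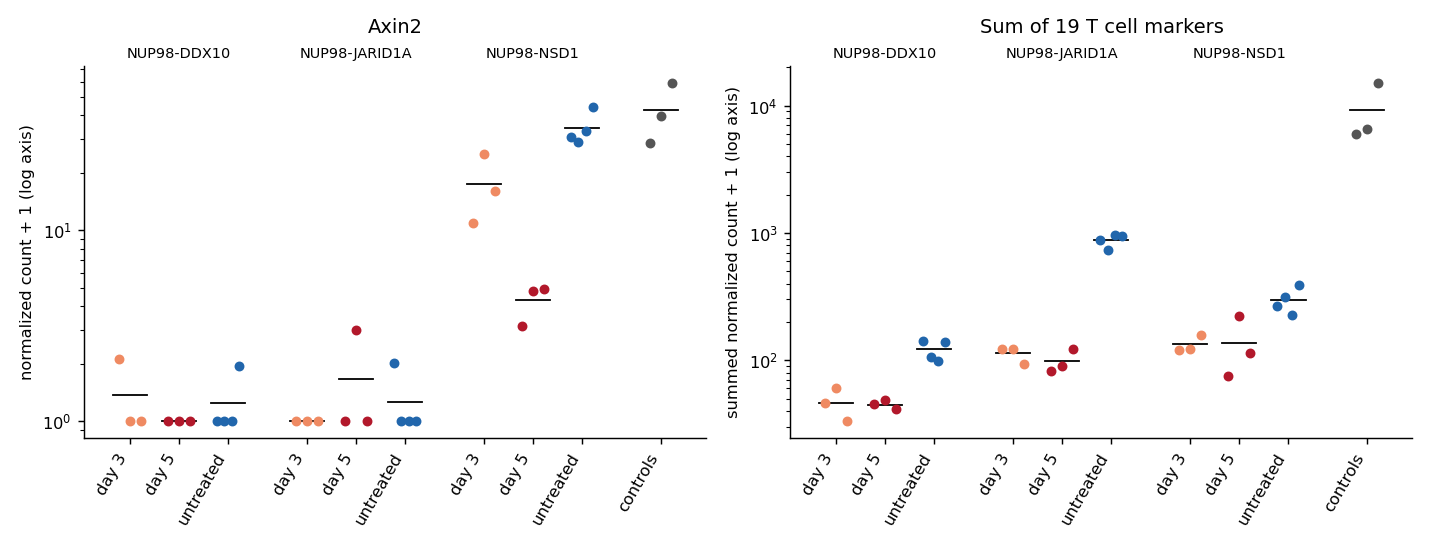
Normalized counts plus 1 of Axin2 (left) and the summed normalized counts plus 1 of 19 T cell markers (right) on log axes, with 1 point per library and a black line at the group mean. Axin2 is at 29.9, 28.2, 32.2 and 43.4 in untreated NUP98-NSD1 cells and at 27.8, 38.9 and 58.4 in the controls, while the T cell sum is highest in the controls (6015, 6501 and 15138).

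Other genes with an HMG box were read from lists of the SOX family and of further HMG box proteins. Of 17 other SOX genes 3 passed the filter, and 14 stayed below it with values of at most 22.1, 5 of them without a read in any library. Sox5, Sox6 and Sox13, all of the SOXD subgroup, were not called at day 5 in the average over fusions (log2 changes of -0.29, 0.19 and -0.26, median -0.26). Sox13 was called lower in untreated leukemia than in the controls (-1.65 ± 0.42, adjusted p = 0.00101). Sox5 and Sox6 passed the filter through the controls, so their levels are given with no test. Sox5 averaged at most 0.510 in the untreated leukemias, against 39.7 ± 15.7 in the controls (SD, n = 3). Sox6, a regulator of red cell maturation, averaged at most 2.01 in the untreated leukemias, against 1250.2 ± 1513 in the controls (SD, n = 3). The erythroid marker sum was at most 41.1 in the untreated leukemias, against 2480.5, 3720.0 and 19214 in the controls, and its part in the Sox6 difference was not tested.

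Of 17 other HMG box genes 15 were tested. At day 5 3 were called higher and 4 lower in the average over fusions (22.6% and 23.4% of all features), and their median log2 change was -0.11, against 0.00 for all features. In untreated leukemia against the controls 2 were higher and 7 lower (31.8% and 38.9% of all features), Tox among the 7 through the controls that carried it past the filter. Ssrp1, a subunit of the histone chaperone FACT, fell (-0.39 ± 0.03, adjusted p = 4.18e-10), as did Ubtf, a factor of ribosomal RNA transcription (-0.17 ± 0.05, adjusted p = 0.00281). Bbx, which encodes an HMG box protein of less known function, was split by fusion. In NUP98-JARID1A cells it was at 1214, 1123 and 1185 at day 3 and at 1134, 933 and 860.0 at day 5, against 4126, 3674, 3678 and 3744 in untreated cells. In NUP98-NSD1 cells it rose at day 5 by 0.59 ± 0.13 (adjusted p = 0.000849), and in NUP98-DDX10 it was not called (0.19 ± 0.13). Tox, a factor of T cell development, averaged at most 2.05 in any leukemia group, against 153 ± 81.6 in the controls (SD, n = 3).

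The Wnt pathway upstream of the TCF factors was described from lists in the order of the signal. Of 25 genes for Wnt and R-spondin ligands and Wnt secretion 6 were tested, and 19 stayed at or below 7.79 in every library. At day 5 the average over fusions had a median log2 change of -0.07 over the 6, and the smallest adjusted p was that of Porcn (0.56 ± 0.27, adjusted p = 0.0888), the enzyme that adds the lipid to Wnt ligands, which missed the threshold. In untreated leukemia against the controls 3 were called higher and 2 lower (31.8% and 38.9% of all features). Wnt6, a ligand kept by the filter through leukemia libraries, averaged 21.7 in untreated NUP98-NSD1, 13.4 in NUP98-JARID1A and 16.8 in NUP98-DDX10, against 4.24 in the controls. Wls, the Wnt carrier, was higher by 0.55 ± 0.20 (adjusted p = 0.0151). Wnt10a, kept by the filter through the controls, had a mean of at most 0.469 in untreated leukemia, against 30.04 ± 13.6 in the controls (SD, n = 3).

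Of 17 receptor genes 9 were tested, and at day 5 in the average over fusions 2 were called higher and none lower (22.6% and 23.4% of all features), with a median of 0.23. Fzd7, a Wnt receptor, rose (0.77 ± 0.11, adjusted p = 3.73e-06), and the rise differed between fusions (adjusted p = 6.1e-05, F-test of limma). In NUP98-JARID1A cells Fzd7 was at 243, 224 and 242 at day 5, against 64.7, 93.9, 40.7 and 68.7 in untreated cells, with no overlap. Lrp5, a Wnt coreceptor, rose by 0.38 ± 0.11 (adjusted p = 0.00584). It was also higher in untreated leukemia than in the controls (1.77 ± 0.16, adjusted p = 1.49e-10), as were 5 receptor genes in all, while 3 were lower (31.8% and 38.9% of all features). Of the lower ones Fzd4 and Fzd6 were carried past the filter by the controls, as Fzd2 and Fzd10 among the higher ones were by leukemia libraries. Fzd6 had no reads in any untreated leukemia library and averaged 32.2 ± 9.33 in the controls (SD, n = 3). Fzd10 averaged 38.6 ± 7.39 in untreated NUP98-NSD1 (SD, n = 4) and had no reads in the controls.

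Of 16 genes of signal relay and the destruction complex 15 were tested, with 2 higher and 2 lower at day 5 (22.6% and 23.4% of all features) and a median of 0.04. Amer1, a partner of APC, fell by 0.38 ± 0.07 on the log2 scale (adjusted p = 6.32e-05). Btrc, which recognises phosphorylated beta-catenin for ubiquitination, fell by 0.42 ± 0.08 on the log2 scale (adjusted p = 0.000179), and Tnks2, which marks axin for turnover, rose by 0.29 ± 0.06 (adjusted p = 0.000319). Apc was lower in untreated leukemia than in the controls (-1.09 ± 0.08, adjusted p = 6.77e-12), as were 4 of the 15 in all, while 4 were higher (38.9% and 31.8% of all features). Ctnnb1, which encodes beta-catenin itself, was not called at day 5 (0.02 ± 0.04, adjusted p = 0.645). Of its coactivators Bcl9 fell (-0.78 ± 0.16, adjusted p = 0.000251) and Ep300 rose (0.19 ± 0.06, adjusted p = 0.0166), with 7 of 8 genes of that list tested, no others called (22.6% of all features were higher and 23.4% lower) and a median of 0.02. Jup, the close relative of beta-catenin at cell junctions, was higher in untreated leukemia than in the controls (1.98 ± 0.21, adjusted p = 2.86e-09).

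The TLE corepressors that TCF factors recruit moved in both directions. Of 9 corepressor and inhibitor genes, all tested, 2 were called higher and 2 lower at day 5 (22.6% and 23.4% of all features), with a median of 0.09. Tle6 was at 50.5, 34.4 and 32.1 at day 5 in NUP98-DDX10 cells, against 141, 133, 104 and 136 in untreated ones. It was at 18.2, 13.1 and 23.4 at day 5 in NUP98-JARID1A cells, against 120.3, 132, 178 and 215, and at 21.5, 36.2 and 27.5 at day 5 in NUP98-NSD1 cells, against 98.4, 139, 106 and 107. Tle6 was lower in all day 5 libraries of each model than in its untreated libraries (-2.25 ± 0.23 in the average, adjusted p = 4.31e-09). Tle2 fell likewise (-1.84 ± 0.21, adjusted p = 4.35e-08).
Tle1 rose at day 5 (1.69 ± 0.22, adjusted p = 3.46e-07), and the rise differed between fusions (adjusted p = 0.0114). In NUP98-NSD1 cells Tle1 was at 213, 224 and 254 at day 5, against 56.5, 61.0, 76.8 and 52.6 in untreated ones, and in NUP98-DDX10 cells it was not called (0.52 ± 0.37, adjusted p = 0.375). In NUP98-JARID1A cells Tle1 was scarce, at 4.86, 14.1 and 13.4 at day 5, against 0, 3.61, 0 and 0.967 in untreated ones. Against the controls the signs were the other way round in untreated leukemia, with Tle6 higher (log2 difference 3.42 ± 0.33, adjusted p = 4.79e-10) and Tle1 lower (-3.16 ± 0.32, adjusted p = 1.01e-09). The Tle1 average includes the scarce NUP98-JARID1A levels, while untreated NUP98-DDX10 was at 125 to 163, against 213 to 232 in the controls. The day 5 and control comparisons share the untreated libraries.

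Among 14 feedback and target genes of the pathway 9 were tested. Leaving out Axin2, described above, 1 of 8 was called higher and 3 lower at day 5 (22.6% and 23.4% of all features), and 3 were higher and 2 lower in untreated leukemia than in the controls (31.8% and 38.9% of all features). Both of the lower ones, Lgr5 and Tnfrsf19, are genes that the controls carried past the filter. Rnf43, which encodes a feedback inhibitor that removes Wnt receptors, was at 105, 110.4 and 89.5 at day 5 in NUP98-NSD1 cells, against 297, 381, 372 and 389 in untreated ones. It was at 27.4, 36.2 and 60.2 at day 5 in NUP98-JARID1A cells, against 149.6, 182, 176 and 308 in untreated ones. Libraries of day 5 and untreated cells did not overlap in either model, and in the average over fusions Rnf43 fell by 1.60 ± 0.13 on the log2 scale (adjusted p = 1.37e-10). Myc, a proliferation gene with many regulators besides the TCF factors, fell in all 3 models (average -1.04 ± 0.08, adjusted p = 2.85e-11). Apcdd1, an inhibitor of Wnt at the membrane, rose (1.51 ± 0.28, adjusted p = 8.36e-05). Lgr5, the stem cell receptor for R-spondins, averaged at most 0.527 in an untreated leukemia group, against 142 ± 69.2 in the controls (SD, n = 3).

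**Figure D5:**
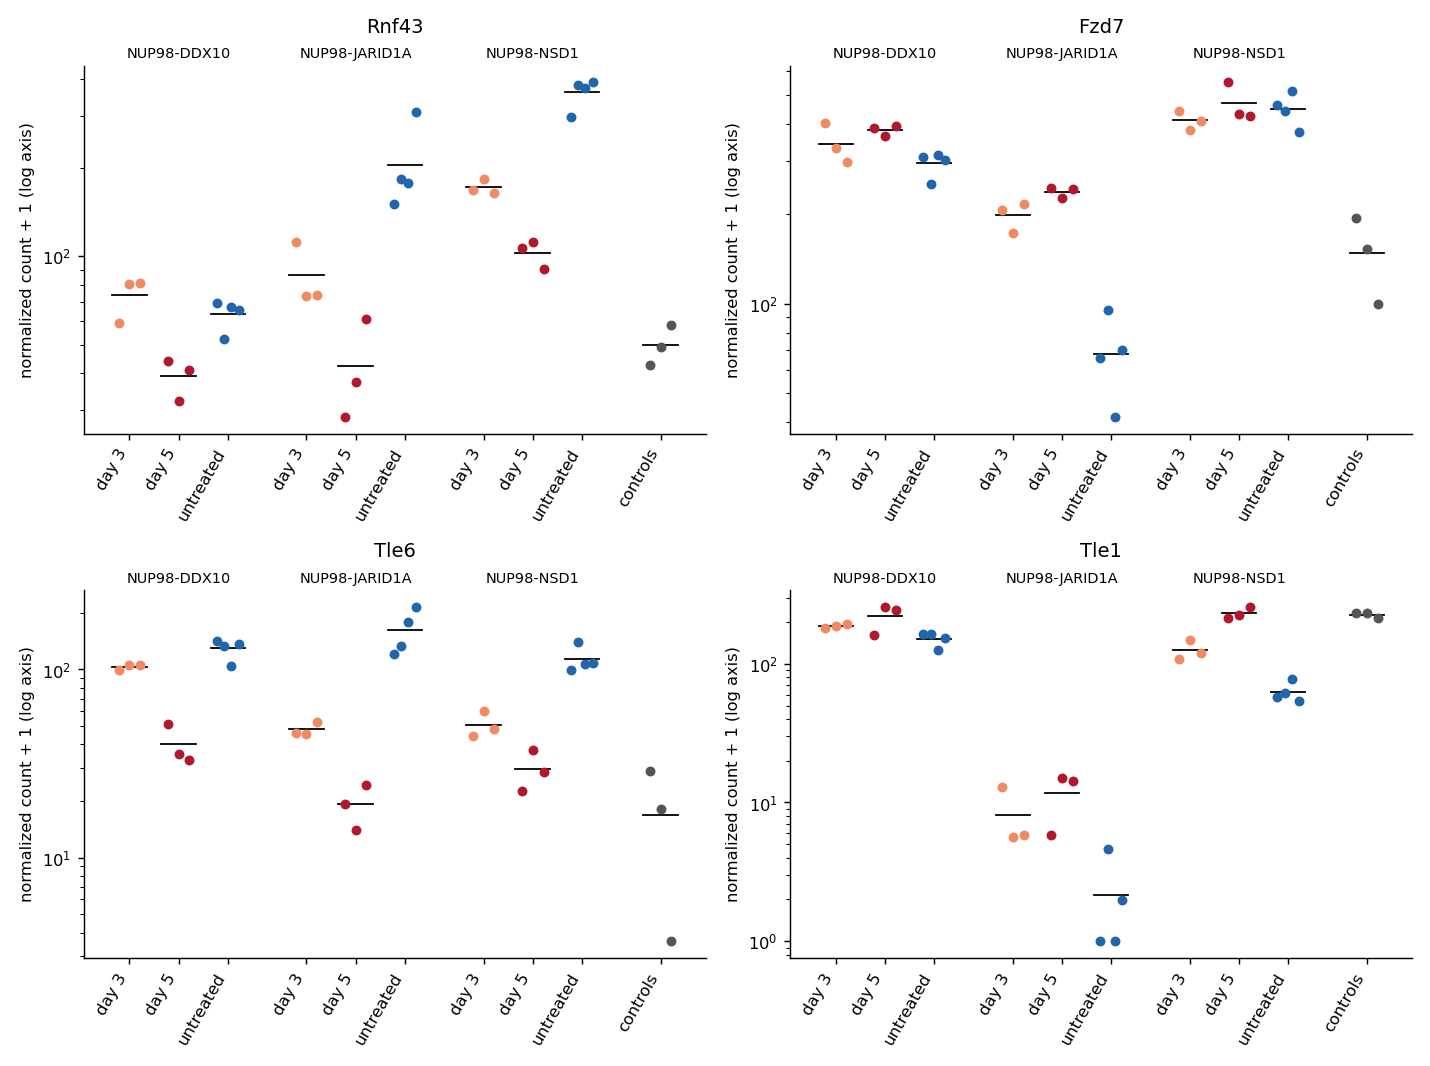
Normalized counts plus 1 of Rnf43, Fzd7, Tle6 and Tle1 on log axes, with 1 point per library and a black line at the group mean, for each fusion at day 3, at day 5 and untreated, and for the controls at the right. Tle6 is lower at day 5 than untreated in every model, and Fzd7 is higher at day 5 in NUP98-JARID1A (243, 224 and 242, against 64.7, 93.9, 40.7 and 68.7 untreated).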

How the data were processed

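Poly-A RNA was sequenced from 33 libraries of a series of 35 samples, and the other 2, from ChIP, were not used here. Per the submitters' processing notes reads were handled with STAR, SAMtools, featureCounts and DESeq2 on GRCm38, with versions not given in the sources used here. The deposited values are a signal, the authors' normalized counts: reads divided by 1 size factor per library. They were whole multiples of 1 read, within 0.01 reads, for 100% of values in every library, which gave back the reads behind each value. For 3 libraries the value of 1 read lies so close to 1 that this could not be checked independently, and they were used in the same way.

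The values were tested as log2(value + 1) with limma 3.58.1 (R 4.3.3, mean-variance trend, 10 group means over 33 libraries, 27.3 degrees of freedom) over the 12682 genes and 5 fusion or reporter constructs that reached 10 in at least 3 libraries. P-values were two-sided and adjusted by Benjamini-Hochberg, with a threshold of 0.05. Alternatives for the 6 genes were edgeR 4.0.16 and DESeq2 1.42.0 on the recovered reads, quantile normalization, and other pseudocounts and filters. Each library was also left out in turn. Only the limma fit was tested on simulated counts, in which genes of few reads were given no change. All 6 genes and all gene lists were chosen with earlier results of these data known. Genes named from a list were the up to 3 with the smallest adjusted p at day 5 and the up to 2 with the smallest adjusted p against the controls, and Ctnnb1 was added after its values were seen. Exact intervals and floors of 3 reads cover counting error only, since reads are not independent molecules.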

Additional observations from a re-analysis of the deposited data

Results flagged for a closer look

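For the genes below the day 5 change differed between the 3 fusion models by the F-test of limma, adjusted over all features, and the values given are that adjusted p. Among Sox12, Lef1, Tcf7l1 and Tcf7l2 only Tcf7l2 differed (0.0200), with a log2 change of -1.12 in NUP98-NSD1, 0.00 in NUP98-JARID1A and 0.48 in NUP98-DDX10.

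Among the other HMG box genes Bbx differed (6.13e-11), falling in NUP98-JARID1A (-1.97) and rising in NUP98-NSD1 (0.59). Ssrp1 differed (0.00172) and fell in all 3 models, most in NUP98-JARID1A (-0.60). Tox was flagged too (0.0494), but the controls carried it past the filter. Its means were at most 2.05 in the leukemias, so no difference is read from it.

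In the Wnt pathway Fzd7 differed (6.1e-05), with a change of 1.86 in NUP98-JARID1A and 0.06 in NUP98-NSD1. Porcn differed (0.0423) and rose in NUP98-NSD1 (1.77). Jup differed (0.00558), falling in NUP98-DDX10 (-0.90), with 0.41 in NUP98-JARID1A and 0.49 in NUP98-NSD1 not called. Ep300 differed (0.0378) and rose in NUP98-JARID1A (0.42). Tle1 differed (0.0114), with 2.64 in NUP98-JARID1A, from untreated levels of at most 3.61, and 0.52 in NUP98-DDX10. Rnf43 differed (0.00188) and fell in all 3 models, least in NUP98-DDX10 (-0.71). Myc differed (0.00784) and fell in all 3 models, most in NUP98-JARID1A (-1.48). Of all features tested 26% differed between fusions in this way.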

How the results depend on the processing

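The 3 control libraries and the few reads of Lef1, Tcf7l1 and, outside NUP98-NSD1 and the controls, Tcf7 limit these results. So do the few reads of Sox4 at day 5 and of Sox12 in NUP98-JARID1A. The counts here are over all 6 genes, with the selected Sox4 and Tcf7 among them. They are no test of those 2 and only describe how settings move the counts. Of all features tested, 46% were called in either direction at day 5, 18.6% at day 3 and 27.7% at day 5 against day 3. Against the controls 70.7% were called in untreated leukemia and 67.8% at day 5. Between fusions 69.8% were called in the untreated state, 26% in the day 5 change and 7.08% in the day 3 change. The number called at day 3 was 2 and became 4 with DESeq2. The number called in untreated leukemia against the controls was 6 and became 3 under quantile normalization, where the Sox12 average turned to 0.0529 (adjusted p = 0.885). The number whose day 5 change differed between fusions was 2 and became 4 with a pseudocount of 0.5 and 4 with a filter of 50, under which 5 genes were tested. The number whose day 3 change differed was 1 and became 2 with DESeq2. The causes were not tested. Which genes were called at day 3 also moved with edgeR, which called Tcf7l1 in the average over fusions (adjusted p = 0.0264). edgeR on the recovered reads called 2765 features higher and 2907 lower at day 5, against 2865 and 2972 with limma.

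Leaving out each library in turn gave 4 to 4 genes called at day 5, 2 to 4 at day 3 (4 without replicate 3 of untreated NUP98-DDX10), 3 to 3 at day 5 against day 3, 4 to 6 in untreated leukemia against the controls and 5 to 6 at day 5 against the controls. It gave 5 to 5 for the difference between untreated fusions, 1 to 4 for the day 5 change (1 without replicate 3 of NUP98-NSD1 at day 5, 4 without control replicate 3) and 1 to 1 for the day 3 change. Of single values in these fits 6250 kept their side of the threshold, 56 lost the call and 30 gained it.

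With the title number as a replicate block the counts were 4, 2, 3, 6, 6, 5, 2 and 1, as without it, and 3 single calls were lost. Deviations of same-numbered libraries from their group means had correlations of -0.377 to 0.247 over 27 pairs, with 5 pairs over 0.1. All 5 paired day 5 with untreated libraries: 0.141, 0.167 and 0.237 in NUP98-JARID1A and 0.135 and 0.247 in NUP98-NSD1. Each fusion fitted alone gave no value for differences between fusions or for averages against the controls. Of the 5 genes most like Sox4 and the 5 most like Tcf7, 2 and 1 were also among the first 5 by correlation.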
